A study of Drosophila melanogaster with 4 samples.

Results

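The regions described here are the stretches of chromosome arm 3R that were called enriched for ubiquitinated histone H2B in third-instar larvae of Drosophila melanogaster. A region was taken when it lay on 3R and its midpoint was more than 2 Mb from the first base of the arm, so that the 2 Mb next to the centromere were left out. By this rule 1102 of the 5627 enriched regions of the authors' combined list were members, along with 1035 of 5135 regions in the list of replicate 1 and 1053 of 5150 in that of replicate 2. The rule used position alone, so widths, scores and agreement between replicates played no part in which enriched regions it took. The members were, however, chosen with earlier results of these data known.

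The larvae were of the wild-type strain Oregon-R (Oregon-R-modENCODE), untreated as far as the labels say. Formaldehyde-fixed chromatin was sonicated and precipitated with NRO3, a mouse monoclonal antibody raised to a branched peptide at the site where ubiquitin joins human H2B, and the DNA was sequenced. There were 2 immunoprecipitated samples, replicates 1 and 2, and 2 inputs, which are not analysed here. Each of the 3 lists gives regions with a start, an end and 1 score of unstated unit, so read depth is unknown and counting intervals cannot be drawn. Nothing in the labels shows that the replicates were separate collections of larvae, and their spread may be of technical origin. The labels name no tissue, so each region is an average over the cells that went into the chromatin, and a mark in few cells cannot be told apart from a weak mark in many.

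Ubiquitin is attached to histone H2B by the conjugating enzyme Rad6 with the ligase Bre1, and removed by deubiquitinases that include a module of the SAGA coactivator. The mark is laid down behind elongating RNA polymerase II with help from the Paf1 complex, so in flies, yeast and mammals it is known as a mark of the bodies of transcribed genes. It is also known to promote methylation of histone H3 at active genes. These are textbook facts. The files name no genes, and the gene table at hand is on FlyBase release 6 while the regions are on release 5, so the regions are given by release 5 position, with no gene assigned.

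Arm 3R is 27.9 Mb long in the file headers, and 25.9 Mb of it lay beyond the limit. Enriched regions covered 24.7% of that span in replicate 1 and 25.6% in replicate 2, a mean of 25.2% ± 0.646 (SD, n = 2), or 6.52 Mb ± 0.167 (SD, n = 2). The combined list covered more, 29.0% or 7.52 Mb, and both replicates lay below it. A typical region was a few kilobases wide, with a median of 3.62 kb in replicate 1, 3.54 kb in replicate 2 and 3.87 kb in the combined list. The middle 50% of widths ran from 2.16 to 6.52 kb in replicate 1, from 2.19 to 6.78 kb in replicate 2 and from 2.04 to 7.64 kb in the combined list. Widths thus spread over nearly the same range in the 2 replicates, while the combined list reached further at both ends. At the narrow end the combined list began at 1001 bp, replicate 1 at 1301 bp and replicate 2 at 1307 bp. The widest region was 88.0 kb in the combined list, 74.8 kb in replicate 1 and 79.3 kb in replicate 2.

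A minority of broad regions accounted for a large part of the covered bases. In the combined list 193 regions of 10 kb or more, 17.5% of all, held 54.6% of them. In the replicates such regions numbered 155 and 154 and held 49.1% and 49.0% of the bases, so the 2 samples hardly differed in this share. At 20 kb or more replicate 1 held 56 regions, replicate 2 held 51 and the combined list 65. The 100 widest regions alone held 39.0% of the bases of the combined list and 39.2% and 39.1% of those of replicates 1 and 2. At the other end, 263 regions of the combined list were narrower than 2 kb and held 5.15% of its bases.

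The limit at 2 Mb fell in a stretch without any call. The last 3 regions outside it were at 1679578 to 1682066 (score 0.493), 1682126 to 1686858 (0.620) and 1825814 to 1833560 (1.65). The first 3 inside were at 2170068 to 2172156 (0.440), 2175934 to 2185884 (0.974) and 2187230 to 2197054 (1.06). No region of the combined list therefore had its midpoint near the limit itself. The 2 Mb left out were covered at 26.7% in replicate 1, 27.7% in replicate 2 and 30.9% in the combined list, a little above the rest of the arm in each list.

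Coverage rose and fell several-fold along the arm, and the replicates moved together. In 26 windows of 1 Mb (the last, at the arm's tip, was 0.905 Mb), the mean of the replicates ran from 7.72% to 42.6%, with a median of 25.7%. Replicate 2 was the more covered in 23 of the 26 windows, and the difference, replicate 2 minus replicate 1, ranged from -1.42 to 2.82 percentage points with a mean of 0.920. Those differences were small beside the spread of 8.81 points (SD over 26 windows) among the windows. Pearson's r between the replicates over these windows was 0.994, a description only, since the windows share an arm and neighbours are not independent.

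**Figure D1:**
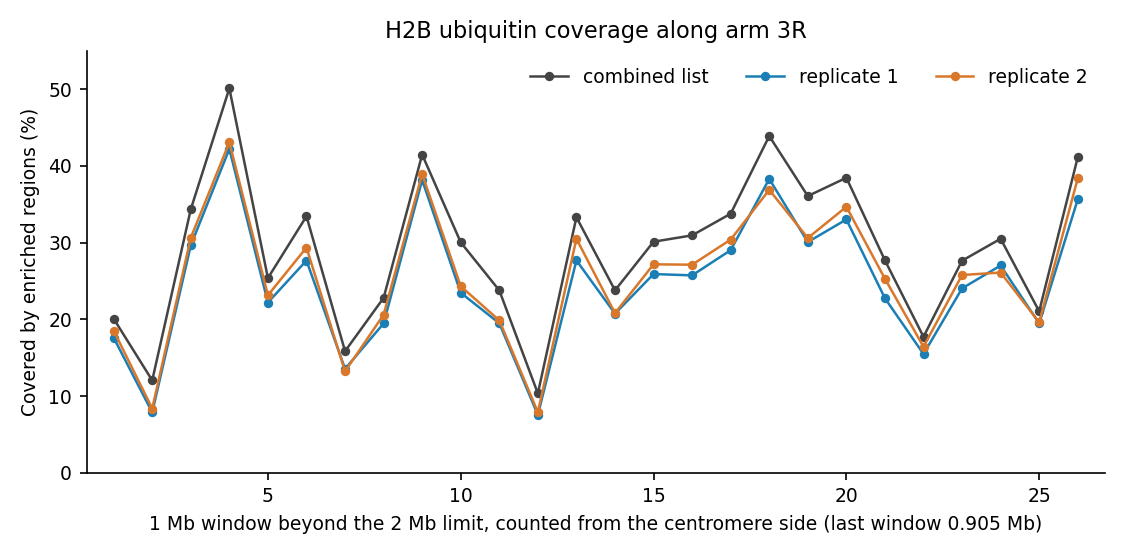
Share of each 1 Mb window of arm 3R covered by enriched regions (y axis, percent) against the number of the window counted from the 2 Mb limit towards the tip (x axis), for the combined list (grey), replicate 1 (blue) and replicate 2 (orange). The 3 lines rise and fall together, from a peak of 50.1% in the combined list in window 4 to a low of 10.3% in window 12.

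The most covered window was 5 to 6 Mb, with 42.2% in replicate 1, 43.1% in replicate 2 and 50.1% in the combined list. It was followed in the combined list by 19 to 20 Mb at 43.9% (38.3% and 36.9% in replicates 1 and 2) and 10 to 11 Mb at 41.5% (38.1% and 38.9%). The same 3 windows came first in replicate 1, whereas in replicate 2 the tip of the arm, with 38.4%, stood ahead of 19 to 20 Mb. The least covered was 13 to 14 Mb, with 7.55% in replicate 1, 7.90% in replicate 2 and 10.3% in the combined list. Next came 3 to 4 Mb at 12.0% (7.88% and 8.38%) and 8 to 9 Mb at 15.8% (13.5% and 13.2%). Richly and poorly marked windows could lie close together, as the low window 3 to 4 Mb and the high window 5 to 6 Mb had 1 window between them.

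Over longer stretches the part between 17 and 22 Mb was the most marked. There the replicates were covered at 31.6% ± 0.498 (SD, n = 2), against 20.8% ± 0.690 between 12 and 17 Mb. The stretches from 2 to 7 Mb (24.3% ± 0.597), from 7 to 12 Mb (24.9% ± 0.580) and from 22 Mb to the tip (24.5% ± 0.829) were close together (SD, n = 2 each). Both replicates were higher in 17 to 22 Mb than in any of the other 4 stretches, and both were lowest in 12 to 17 Mb. The stretch next to the tip differed in kind: it had the fewest regions per Mb in all 3 lists, 35.1 in each replicate against 35.8 or more elsewhere, and the highest median score, 0.846 in replicate 1 and 0.853 in replicate 2 against at most 0.785 and 0.745 elsewhere. The margin in number over the 12 to 17 Mb stretch was small, 35.1 against 35.8 in replicate 1 and 36.2 in replicate 2.

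Coverage of the windows went with the number of their regions, and hardly with the median score of those regions. Across the 26 windows Spearman's rho between coverage and the number of regions was 0.807 in replicate 1 and 0.775 in replicate 2. Between coverage and the median score of the window's regions it was -0.00718 and -0.115. In the combined list rho was 0.707 with the number of regions, 0.357 with their median width and -0.0455 with their median score. A median gives narrow and wide regions the same weight, so a relation of coverage to wide regions of high score was not measured. The points are neighbouring windows of 1 arm, and coverage contains the number and width of regions by construction, so no test was made.

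At a finer scale the arm was a mosaic of empty and densely marked stretches. The arm was cut into 260 windows of 100 kb, of which the last, at the arm's tip, was 5.05 kb long. Counting this short window, which was empty, 34 held no covered base in the combined list, and these 34 were empty in both replicates. Their emptiness there was largely fixed in advance, since 99.8% of the bases of each replicate lay within the combined list. At the other extreme, 57 windows of the combined list were covered at 50% or more, with 48 in replicate 1 and 49 in replicate 2, and 46 reached that level in all 3 lists. The median window was covered at 18.6% in replicate 1 and 19.3% in replicate 2, well under the mean of 24.6% and 25.5%. The most covered was 21.2 to 21.3 Mb, with 97.1% in replicate 1, 96.8% in replicate 2 and 98.8% in the combined list. After it, by the combined list, came 4.9 to 5.0 Mb (94.6%), 27.7 to 27.8 Mb (93.9%), 10.5 to 10.6 Mb (92.1%) and 7.4 to 7.5 Mb (83.5%). Both replicates covered at least 80.2% of each of these 5 windows, so they were densely marked in either sample.

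Neighbouring regions often lay close together. The median gap between neighbours was 3.37 kb in replicate 1, 3.02 kb in replicate 2 and 2.71 kb in the combined list, while 75% of gaps were shorter than 14.5, 14.1 and 13.5 kb. Gaps under 1 kb made up 23.9%, 25.2% and 31.1% of all gaps in these lists. Joining regions less than 10 kb apart turned the 1102 regions of the combined list into 325 blocks with a median of 15.8 kb, and the replicates into 315 and 322 blocks. The longest such block ran from 4864880 to 5071844, 207 kb with 20 regions, and 88.4% of it was covered in the combined list, with 76.1% and 76.9% in replicates 1 and 2. The next were at 17959318 to 18118294 (159 kb, 82.8% covered), 10469754 to 10618412 (149 kb, 91.4%), 5322738 to 5464038 (141 kb, 78.5%) and 21177766 to 21319040 (141 kb, 97.3%). Of these 5 blocks, the 207 kb block reached into the most covered 1 Mb window and the block from 5322738 lay within it.

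Long gaps held a large part of the unmarked sequence. Gaps were counted only between neighbouring regions that both lay beyond the limit. There were 46 gaps of 100 kb or more in the combined list, and 51 and 50 in replicates 1 and 2. They held 7.82, 8.89 and 8.67 Mb, or 30.2%, 34.3% and 33.5% of the span. This was 42.5%, 45.6% and 45.0% of all unmarked bases in these lists. None of the 46 gaps of the combined list held a whole region of either replicate, and 24 of them held no base of either. In the others, the ends of regions reached in, covering at most 58 bp of a gap in replicate 1 and 330 bp in replicate 2. Because 99.8% of the bases of each replicate lay within the combined list, this near emptiness was largely fixed in advance. The long stretch without a call across the limit lay between regions ending at 1833560 and starting at 2170068. By these positions it was longer than the 313 kb gap named below. It was neither counted nor ranked, because the first of its 2 bordering regions lay outside the limit. Its part beyond the limit still counted as span and as unmarked bases. The longest gap counted was 353 kb, at 23792923 to 24145461. It was followed by 313 kb at 6721103 to 7034123, 277 kb at 3359291 to 3636255, 256 kb at 23117671 to 23373589, 251 kb at 18619385 to 18870245 and 250 kb at 2485395 to 2735763. The other 4 of the 10 longest were at 8538227 to 8775969 (238 kb), 12978931 to 13211529 (233 kb), 3076813 to 3298127 (221 kb) and 16156107 to 16363689 (208 kb). Together, 2 of them, at 3076813 and 3359291, took up much of the sparsely covered window from 3 to 4 Mb. How much of each gap could be read by the aligner was not measured.

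Long gaps could border strongly marked chromatin. The 251 kb gap from 18619385 began at the end of a region of 44.7 kb with a score of 1.48, and the 256 kb gap from 23117671 ended before a region of 11.9 kb with a score of 1.42. The 92 regions of the combined list beside gaps of 100 kb or more had a median width of 3.63 kb and a median score of 0.667. For the other 1010 regions the medians were 3.91 kb and 0.596, so regions at the rim of a long gap were slightly narrower and scored slightly higher than the rest. These are descriptions of 1 list, with no test.

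The 2 replicates marked nearly the same bases of the arm. The Jaccard index, the share of all bases marked in either list that were marked in both, was 86.6%, with 6.05 Mb in both, 0.352 Mb in replicate 1 alone and 0.588 Mb in replicate 2 alone. Of the 1035 regions of replicate 1, 970 (93.7%) shared 1 bp or more with a region of replicate 2, against 93.2% of all regions in the series. Of the 1053 regions of replicate 2, 941 (89.4%) overlapped replicate 1, against 88.2% in the series. With an overlap of at least 50% of both regions required, 823 regions of replicate 1 (79.5%) had a partner, against 77.6%. All of these shares on 3R were near the background of the whole series.

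Regions seen in a single replicate were narrow and scored low. In replicate 1, 65 regions lacked a partner, and their median width was 1.55 kb and their median score 0.532, against 3.83 kb and 0.803 for those with one. In replicate 2 the 112 regions without a partner had medians of 1.83 kb and 0.536, against 3.98 kb and 0.802. The widest were 3.30 kb in replicate 1 and 7.56 kb in replicate 2. Wide regions have more room to overlap by chance, which the 1 bp rule does not correct.

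Matched regions had like edges and like scores. Taking pairs in which each region had its largest overlap with the other gave 887 matches. Their starts differed by a median of 162 bp and their ends by 149 bp, and in 132 pairs (14.9%) both edges lay within 100 bp. A shift of more than 1 kb was seen for 14.9% of starts and 12.9% of ends. Scores of the pairs correlated with a Spearman's rho of 0.924 and a Pearson's r of 0.949, and widths with a rho of 0.899 (887 pairs on 1 arm, a description with no test). The score was higher in replicate 2 in 503 of the 887 pairs (56.7%), by a median of 0.0187 over all pairs.

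The tilt towards replicate 2 was larger among regions of high score. Among the 222 pairs in the top 25% of replicate 1's scores, replicate 2 was higher in 172, and the median difference over all 222 was 0.0706. Among the 222 pairs in the lowest 25% it was higher in 122, and the median difference over all 222 was 0.00685. Each score was computed within its own list by a method not given, and a difference in scale between the lists cannot be told apart.

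**Figure D2:**
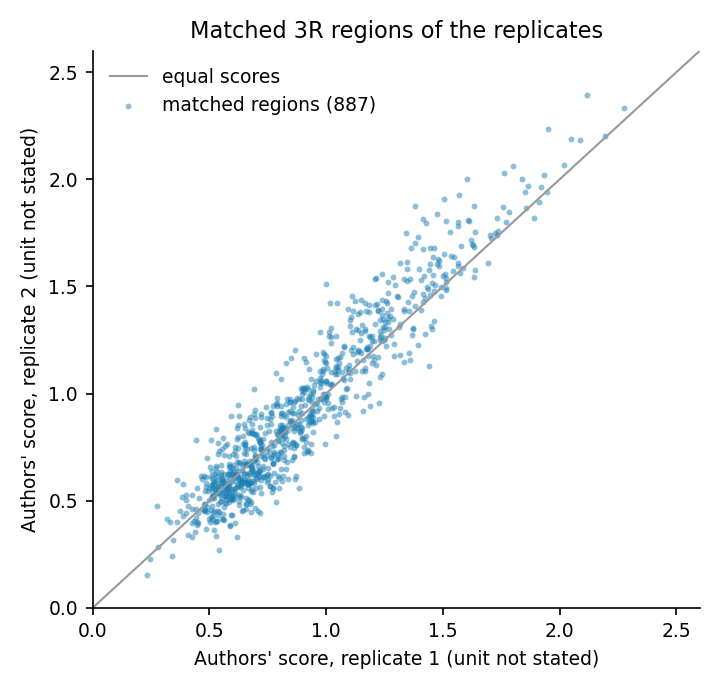
Authors' score of 887 matched regions of arm 3R in replicate 1 (x axis) and replicate 2 (y axis), in the score's unstated unit, with 1 point per pair and a grey line of equal scores. Points follow the line, and towards high scores more of them lie above it, where replicate 2 was the higher.

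The pairs that differed most in score all scored higher in replicate 2. The first was at 20171509 to 20184094 in replicate 1 with a score of 0.999 and at 20171489 to 20176854 in replicate 2 with 1.51, so the 2 calls shared a start but ended 7240 bp apart. The other 4 began at 25702710 (1.38 in replicate 1 and 1.87 in replicate 2), 25141073 (1.02 and 1.42), 13514997 (1.34 and 1.75) and 12067884 (1.51 and 1.91). In these 4 the edges differed by at most 619 bp, so the scores differed over almost the same bases.

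The strongest region of the arm lay at 23389910 to 23411824. It was 21.9 kb wide, with a score of 2.27 in replicate 1, 2.33 in replicate 2 and 2.30 in the combined list. The second, near the tip at 27721408 to 27763730, was 42.3 kb wide and scored 2.12, 2.40 and 2.28 in the same order. The third, at 20054228 to 20075018, was 20.8 kb wide and scored 2.19, 2.20 and 2.20. They headed the combined list, whereas replicate 2 put the 42.3 kb region first and replicate 1 put it behind both of the others.

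Of the 10 highest scores among regions seen in both replicates, 7 lay beyond 16 Mb, where 510 of the 1102 regions (46.3%) lay. That position was chosen after the values were seen. Beside the 3 above, these were the regions at 22950524 to 22967314 (score 2.12), 26615770 to 26633098 (1.98), 27230506 to 27239908 (1.94) and 16608512 to 16621776 (1.93). The remaining 3 were at 5166836 to 5186678 (2.13), 4638504 to 4646638 (2.01) and 12270828 to 12280226 (1.92). Neither replicate split any of the 10, and each of the 10 was covered to at least 84.3% by replicate 1 and 85.6% by replicate 2. They were not the widest: their widths ran from 8.14 to 42.3 kb and none was among the 10 widest. Their surroundings varied, since from 23.5% to 83.7% of the 50 kb on either side was covered, with a median of 38.4% against 36.0% for all regions of the list.

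The 10 widest regions were mostly cut up in the replicates. They were picked by their width in the combined list, a choice that can favour regions joined across breaks in a replicate. Their scores ran from 0.834 to 1.67 with a median of 1.28, against a median of 0.601 for all regions, and 7 of the 10 lay in the top 25% of scores. The widest was 88.0 kb, at 4896062 to 4984038, with a score of 1.29, and it ranked 128 of 1102 by score. It was 2 regions in replicate 1 and 4 in replicate 2, which covered 99.3% and 97.8% of it. Next came 85.0 kb at 21341956 to 21426930 (score 1.36), 74.9 kb at 10232928 to 10307872 (1.63), 73.5 kb at 21225146 to 21298666 (1.27) and 70.4 kb at 15767490 to 15837874 (0.834). Among them, the 73.5 kb region was the only one of the 10 widest called in 1 piece in each replicate, with 72.5 kb and a score of 1.28 in replicate 1, and 73.3 kb and 1.27 in replicate 2. It lay 0.443 kb from another of the 10, at 21177766 to 21224702 (46.9 kb, 0.880), which together make up most of the 100 kb window with the highest coverage.

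The other 4 of the 10 widest were at 17959318 to 18018030 (58.7 kb, score 1.05), 24884884 to 24933406 (48.5 kb, 1.67), 17398280 to 17444700 (46.4 kb, 1.50) and 6362264 to 6407630 (45.4 kb, 0.880). The replicates disagreed most over the first of these, which replicate 1 called as 5 regions covering 81.1% of it and replicate 2 as 3 regions covering 99.1%. The 46.4 kb region was 4 pieces in replicate 1 and 1 in replicate 2. It was the only one of the 10 that replicate 1 split and replicate 2 left whole. The reverse held at 10232928, with 1 region in replicate 1 and 2 in replicate 2. As a group the 10 widest held 8.48% of the marked bases of the combined list.

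**Figure D3:**
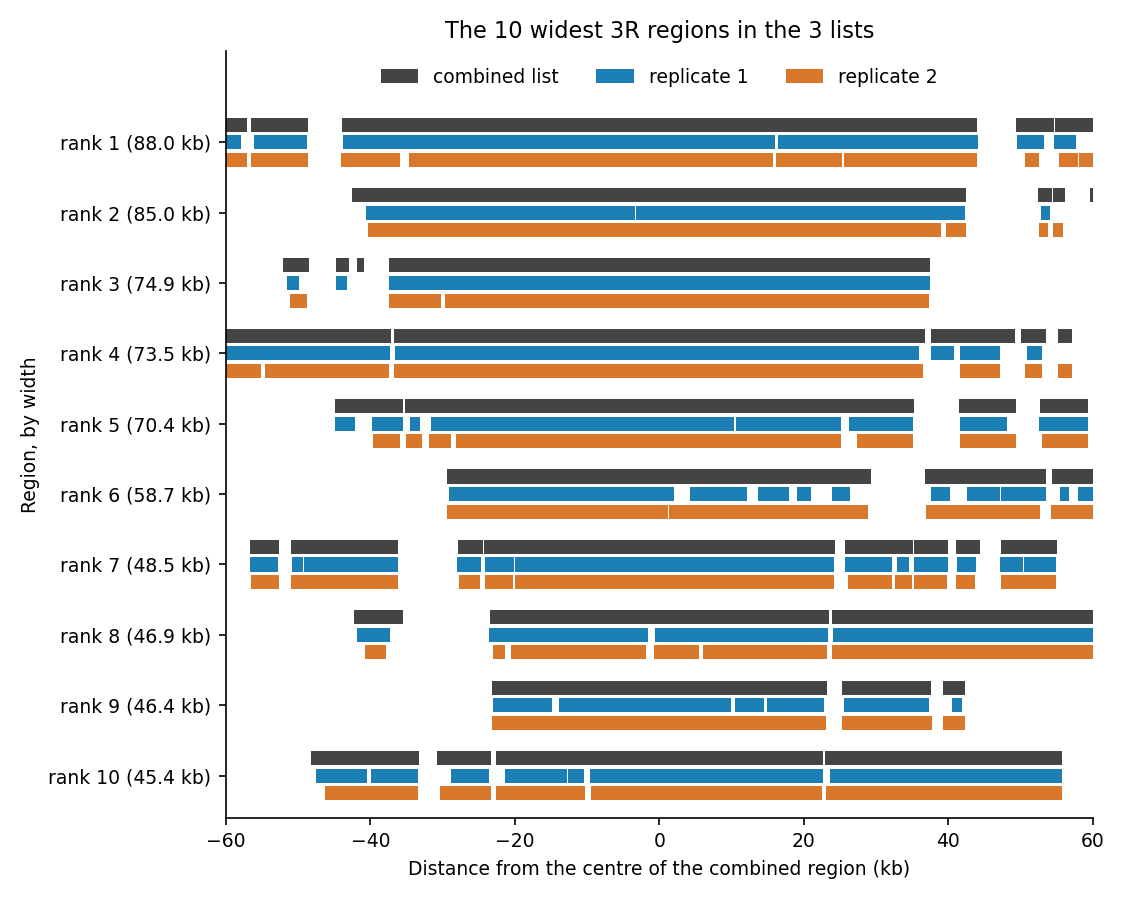
The 10 widest regions of arm 3R in the combined list (grey), each centred at 0, with the regions of replicate 1 (blue) and replicate 2 (orange) over the same bases; the x axis is the distance from the centre in kb and each row is 1 region, widest at the top. The replicates fill at least 81.1% and 93.9% of every grey region, yet in 1 region alone, rank 4, both do so with a single bar.

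Breaks inside regions were more common from 10 kb up than below. Width here was that in the combined list, so joining across a break in a replicate made a region wider. Among the 241 regions of 5 to 10 kb in the combined list, 160 were 1 region in each replicate and 78 were split in at least 1 replicate. Among the 128 of 10 to 20 kb the numbers were 65 and 63, and among the 65 of 20 kb or more they were 31 and 34, with up to 6 pieces in either replicate. Regions that were 1 region in each replicate thus made up 66.4%, 50.8% and 47.7% of these classes in turn, so the last step was small. All 193 regions of 10 kb or more overlapped both replicates, as did 237 of the 241 from 5 to 10 kb, but 375 of the 668 below 5 kb (56.1%) did.

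Score climbed with width. The median score in the combined list was 0.433 under 5 kb, 0.858 from 5 to 10 kb, 1.16 from 10 to 20 kb and 1.37 at 20 kb or more. The ranks of width and score correlated with a Spearman's rho of 0.843 in replicate 1, 0.847 in replicate 2 and 0.828 in the combined list (1035, 1053 and 1102 regions of 1 arm). The formula of the score is not known here, so a link that was built in by the calling cannot be told apart. The relation had clear exceptions. In the combined list 34 of the 668 regions under 5 kb scored 1 or more, and 10 of the 65 regions of 20 kb or more scored under 1.

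Among regions under 5 kb seen in both replicates, the highest score was that of the region at 22972788 to 22977374. It was 4.59 kb wide and scored 1.91 in replicate 1, 1.89 in replicate 2 and 1.88 in the combined list. Another at 11069182 to 11072780, 3.60 kb wide, scored 1.63, 1.87 and 1.76 in that order, and the next at 5459720 to 5464038, 4.32 kb wide, scored 1.61, 1.81 and 1.71. Each was a single region in all lists, with at least 96.9% of it covered by each replicate. At the opposite corner, the region at 7725304 to 7761578 was 36.3 kb wide with a score of 0.689. It fell into 6 pieces in each replicate, which covered 55.9% and 81.3% of it. These 4 regions were picked after their values were seen.

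**Figure D4:**
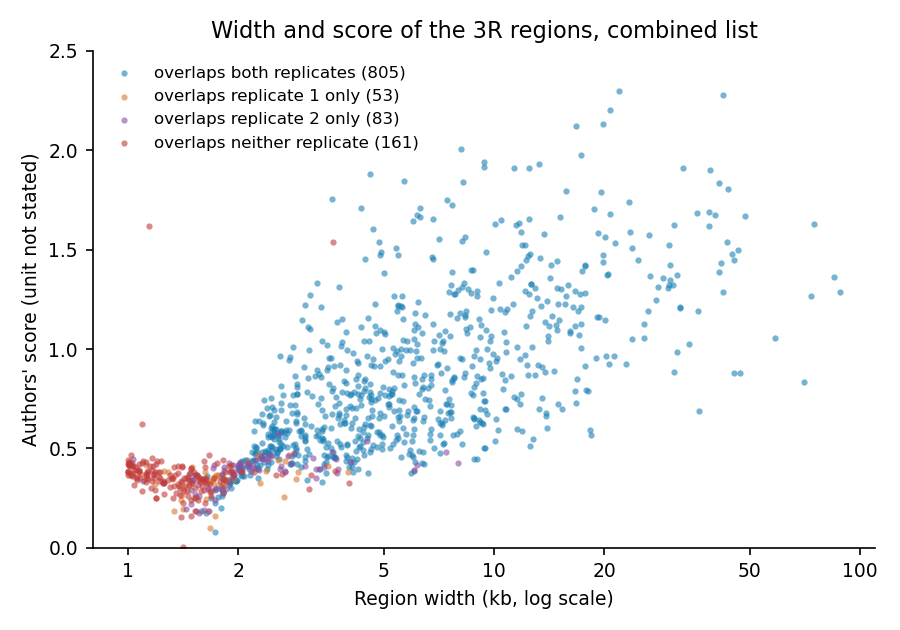
Width (x axis, kb, log scale) and authors' score (y axis, unit not stated) of the 1102 regions of arm 3R in the combined list, 1 point per region, coloured by which replicates hold an overlapping region. Regions absent from both replicates (red) gather mostly below 2 kb at scores near 0.36, with 2 exceptions at 1.62 and 1.54.

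The combined list added narrow regions to those of the replicates. Of its 1102 regions, 805 (73.0%) overlapped a region of both replicates, against 70.0% over the whole series, and they made up 93.0% of its bases. Another 53 met replicate 1 only and 83 met replicate 2 only. The remaining 161 (14.6%) overlapped neither, against 16.1% over the series, and held 3.06% of the bases. Conversely 99.8% of the bases of each replicate lay within the combined list. It therefore held nearly all that the replicates held, plus 0.554 Mb (7.37% of its bases) found in neither. The 161 regions made up 3.06% of its bases, so the rest of these added bases lay in regions that did overlap a replicate.

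The added regions sat near the lower limits of width. Of 84 regions of the combined list from 1001 to 1300 bp, widths that do not occur in the replicate lists, 73 overlapped neither replicate and none overlapped both. From 1301 to 1600 bp 52 of 79 overlapped neither, from 1601 to 2000 bp 27 of 100, and from 2001 to 3000 bp 4 of 186. Median scores of these 4 width classes were 0.382, 0.318, 0.336 and 0.480, so score did not climb with width below 2 kb. Every start and end in the combined list was an even number, while 48.9% of starts in replicate 1 and 51.1% in replicate 2 were even. Where a combined region was 1 region in each replicate (609 regions), its score lay between the replicate scores in 263, below both in 344 and above both in 2.

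Beside the other major arms, with the 2 Mb next to each centromere left out throughout, 3R was the second least covered and the second richest in long gaps. From least to most, the replicates covered 23.3% ± 0.656 of 2L, 25.2% ± 0.646 of 3R, 26.5% ± 0.867 of 3L, 27.0% ± 1.02 of X and 29.8% ± 1.15 of 2R (SD, n = 2 each). This order was the same in both replicates and in the combined list. The coverage of 3R lay below the mean of the other 4 arms by 1.28 percentage points in replicate 1, 1.67 in replicate 2 and 2.34 in the combined list. An exact two-sided sign-flip test over 2 samples cannot give a p below 0.5, so that test cannot pass a threshold of 0.05 here, and no p is given. The replicates of 3R (24.7% and 25.6%) did not overlap with those of 3L (25.9% and 27.2%). With no sequence left out on any arm, 3R fell short of the others' mean in the combined list by a smaller difference of -0.375 points.

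Long gaps followed the reverse order at its ends. Gaps of 100 kb or more took up 33.9% ± 0.589 of 3R (SD, n = 2), against 37.4% ± 0.637 of 2L, 29.3% ± 0.684 of X, 25.5% ± 1.71 of 3L and 19.8% ± 0.539 of 2R. Regions were also fewer per Mb on 3R (40.3 ± 0.491) than on 3L (41.9 ± 0.533), X (47.1 ± 1.11) and 2R (52.6 ± 0.295), and more than on 2L (38.0 ± 0.269). In the combined list 3R was lowest in this count, at 42.5 per Mb against 42.9 on 2L. Regions on 3R were no narrower, with a median width of 3.58 kb ± 0.0552, first in rank in replicate 1 and in the combined list and second after 3L in replicate 2. The difference between 3R and the average of the others in replicate 2 was 0.0521 kb, less than the spread between replicates.

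**Figure D5:**
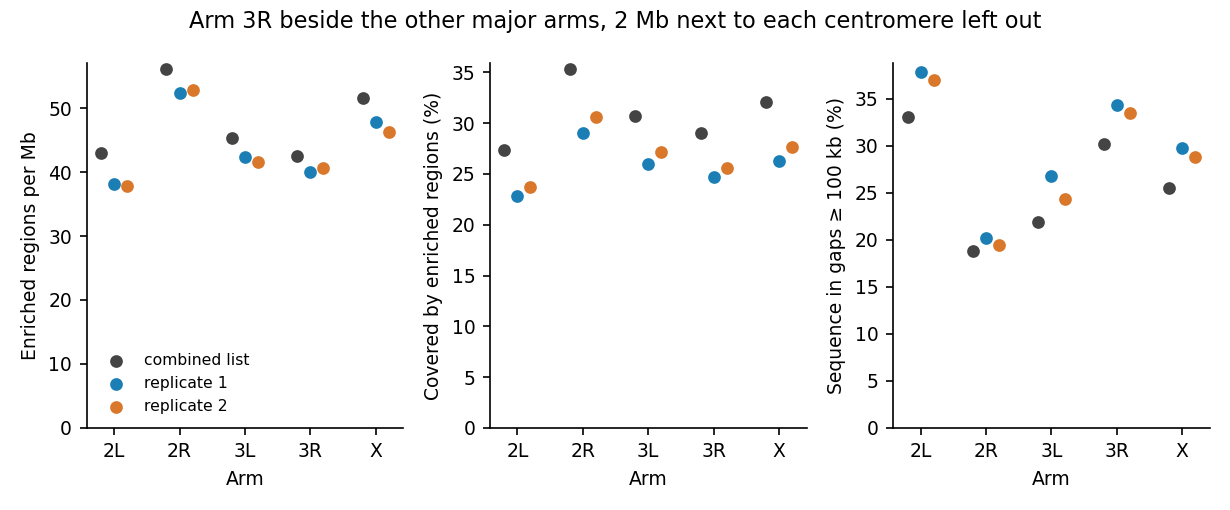
Enriched regions per Mb, share of sequence covered and share of sequence in gaps of 100 kb or more (y axes, from left to right) on the 5 major arms (x axis), 1 point per list: combined (grey), replicate 1 (blue) and replicate 2 (orange). List by list, on coverage the points of 3R lie above those of 2L and below those of 3L, X and 2R, and on long gaps they lie below those of 2L and above those of the other 3.

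In score and in agreement between replicates 3R was like the other arms. Its median score was 0.773 in replicate 1 and 0.745 in replicate 2, rank 3 of 5 in both, with X first at 0.830 and 0.839 and 2R last at 0.737 and 0.729. The Jaccard index between replicates was 86.6% on 3R, above 85.8% on 3L, 85.6% on 2L, 84.4% on 2R and 83.8% on X. Matched regions gave a rho of score between 0.911 on X and 0.932 on 3L, with 0.924 on 3R. Each of the last 2 measures is 1 value per arm from 1 pair of samples, and these differences were not tested.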

How the data were processed

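Chromatin immunoprecipitation sequencing of 2 samples, with 2 inputs, was deposited as 3 lists of enriched regions. The submitters' processing notes name the aligner Bowtie 0.12.7. Per the file headers, positions are on release 5 of FlyBase. Not given in the sources used here are the caller, its thresholds, the use of the inputs and the making of the combined list. Each region has 1 score from the authors, whose scale is not stated. Within a list it served to describe and rank regions. Scores of single regions are compared between lists only where the regions matched or overlapped. Median scores of the lists are also given side by side. Samples were grouped by their titles. The lists hold no reads, so depth is unknown and count models cannot be used.

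The 1 depleted region found in the 3 lists was left out. Widths, gaps, coverage and overlaps (at least 1 bp unless stated) were computed with Python 3.11.15, numpy 2.4.6, pandas 2.3.3 and scipy 1.17.1, and plotted with matplotlib 3.10.9. The routines were tested on simulated regions. Regions were assigned to windows by midpoint and covered bases by position. With 2 samples of 1 group no test between groups was possible, and values are given with their SD over replicates. The members and lists were chosen with earlier results of these data known. The rule for named items took, on 3R, the 10 highest scores and 10 widest regions seen in both replicates, the 10 longest gaps, the 3 most and 3 least covered 1 Mb windows, the 5 most covered 100 kb windows, the 5 widest regions in neither replicate, the 3 regions either side of the limit and the 5 matched pairs that differed most in score. Blocks, stretches of about 5 Mb, width classes and other named regions were chosen after their values were seen. Alternatives covered other limits, the top 50% of scores, merging under 500 bp, a reciprocal overlap of 50% and each replicate alone.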

Additional observations from a re-analysis of the deposited data

How the results depend on the processing

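With no limit or limits of 1 and 4 Mb, the combined list held 1198, 1152 and 1041 regions, and coverage was 29.2%, 29.3% and 30.1%. The Jaccard index was 86.7%, 86.6% and 86.5% under these limits, 86.7% after merging regions under 500 bp apart and 84.6% with the top 50% of scores. Keeping the top 50% of scores left 561 regions on 3R, which by construction is about 1 in 2, covering 23.5% with a median width of 7.21 kb. Merging left 893 regions with a median width of 4.77 kb. A reciprocal overlap of 50% lowered the shared share of replicate 1 to 79.5%. Taking 1 replicate's list in place of the combined list gave 1035 to 1053 regions, coverage of 24.7% to 25.6% and a median width of 3.54 to 3.62 kb. The coverage of 3R minus the mean of the other 4 arms was below 0 under each alternative run: from -1.67 to -1.28 percentage points with 1 replicate alone, -1.80 with the top 50% of scores and -0.375 with no limit on any arm. Leaving out the 2 Mb next to each centromere thus moved the difference in the combined list from -0.375 to -2.34 points. The coverage of 3R itself hardly changed, at 29.2% with no limit and 29.0% with the 2 Mb limit. The shift therefore lay mostly in the mean of the other 4 arms. The rank of 3R among the arms with no limit is not given here. No paired analysis was possible because inputs, which share replicate numbers with the immunoprecipitated samples, come without a list of regions here. Read depth is unknown, so a region missing from 1 replicate cannot be told apart from one missed for lack of reads.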

Other observations

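Among the 161 regions of the combined list on 3R that overlapped neither replicate, 159 scored at most 0.623, but a pair of neighbours stood far above. They lay at 17126026 to 17127166 (1.14 kb, score 1.62) and at 17127642 to 17131280 (3.64 kb, score 1.54), ranks 47 and 60 of 1102, with 0.475 kb between them. The region just before them, at 17122064 to 17125952, scored 0.837 in the combined list and was called in both replicates, at 17121860 to 17125559 with 0.863 in replicate 1 and at 17122627 to 17125580 with 0.908 in replicate 2. The next call after them began at 17135979 in replicate 1, at 17134874 in replicate 2 and at 17134566 in the combined list. Both replicates therefore resumed on either side of bases that carried 2 of the 60 highest scores of the combined list and no call of their own. On the other major arms under the same limit, regions in neither replicate with a score of 1 or more numbered 1 each on 2L, 3L and X and 0 on 2R. What made these calls was not tested.

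The widest of the regions in neither replicate, at 9461340 to 9465354, was 4.02 kb with a score of 0.325. It followed a stretch of 178 kb without a call and lay 0.073 kb before the next region. The others among the 5 widest, beside the one at 17127642 to 17131280, were at 16778736 to 16782422 (3.69 kb, 0.386), 3975630 to 3978798 (3.17 kb, 0.365) and 21576438 to 21579552 (3.12 kb, 0.297).

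Neighbouring regions on 3R resembled each other little in width or score. Spearman's rho between the scores of consecutive regions was 0.0786 in replicate 1 and 0.0868 in replicate 2, and between their widths 0.0898 and 0.105. A rho this small across neighbours of 1 arm is given as a description.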
